A study of Canis lupus familiaris with 36 samples.

Results

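The genes described here are 10 chromatin regulators that are mutated, deregulated or targeted by drugs in human lymphoma: EZH2, EED, SUZ12, DNMT1, DNMT3A, TET2, SETD2, CREBBP, EP300 and HDAC1. They were chosen by name, each was matched by its symbol to the annotation of the array, and where a gene had several probe sets the brightest on average stood for it. Of the 10 genes, 9 had a probe set, 18 probe sets in all, out of 15115 genes with a probe set on the array, and all 9 passed the filter on low values that left 7500 genes in the tests. EP300 had no probe set in the annotation used and is named only. RNA had been measured in lymphoma tissue from 35 dogs on 36 arrays, with 1 DLBCL dog on 2 arrays that were averaged. The B phenotype held 17 dogs, namely 2 with the label BL, 10 with diffuse large B-cell lymphoma (DLBCL) and 5 with marginal zone lymphoma (MZL). The T phenotype also held 17 dogs, namely 4 with the label LBT, 4 with peripheral T-cell lymphoma (PTCL) and 9 with T-zone lymphoma (TZL). A single dog labelled as neither B nor T (NBNT) was shown but not tested. The labels called MZL, TZL and NBNT low grade and the others high grade, except PTCL replicate 4, which was intermediate. They give no treatment and no genotype. The dogs were 24 Golden Retrievers and 11 of other breeds, 15 males and 20 females. Golden Retrievers numbered 1 in BL, 6 in DLBCL, 4 in MZL, 3 in LBT, 1 in PTCL, 8 in TZL and 1 in NBNT. Age at diagnosis, for which the labels give no unit, ran from 2 to 5 in BL, 4 to 14 in DLBCL, 4 to 10 in MZL, 3 to 10 in LBT, 6 to 14 in PTCL and 7 to 11 in TZL, and was 8 in the NBNT dog.

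EZH2 is the methyltransferase of Polycomb repressive complex PRC2, which places the repressive mark H3K27me3, and EED and SUZ12 are core subunits that the enzyme needs to be active. DNMT1 copies DNA methylation onto the new strand after replication, DNMT3A sets it on unmethylated DNA, and TET2 oxidises methylated cytosine on the way to its removal. SETD2 places H3K36me3 along transcribed genes, CREBBP and EP300 are related acetyltransferases that act at enhancers, and HDAC1 removes acetyl groups within corepressor complexes. In normal human and mouse lymphoid tissue EZH2 is abundant in dividing germinal centre B cells and low in resting lymphocytes. In human lymphoma EZH2 and CREBBP are recurrently mutated in B-cell disease of germinal centre origin, and TET2 and DNMT3A in peripheral T-cell disease.

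Median intensities ran from 5.57 to 6.13 over the arrays, and 32.2% to 35.5% of the probe sets reached an intensity of 16, a log2 value of 4, which served as the minimum. Precision rests on how many arrays each group has. Markers followed the phenotype labels. The mean log2 intensity over 9 T cell genes ran from 5.76 to 8.10 in the B dogs and from 9.09 to 11.52 in the T dogs, and that over 8 B cell genes from 8.80 to 9.84 in the B dogs and from 2.35 to 8.59 in the T dogs. The B cell factor PAX5 was below the minimum in all 34 dogs. The NBNT dog had a T cell score of 10.69 and a B cell score of 8.35, both inside the range of the T dogs. A set of 6 arrays stood apart: TZL replicates 1, 2 and 7, DLBCL replicates 4 and 9, and PTCL replicate 3. Their 3' control for actin had log2 values of 14.0 to 14.4, and all the rest had 10.8 to 12.5. Within subtypes, 22.4% of the 7500 genes were called between these 6 arrays and the rest, and so were 4 of the 9 members. SETD2 was lower in the set by a log2 difference of -1.67 (limma adjusted p = 0.00226), SUZ12 was lower (-1.40, adjusted p = 0.0306), and DNMT3A (1.31, adjusted p = 0.00826) and CREBBP (0.57, adjusted p = 0.0236) were higher. The tissue is a mixture of cells, so fewer cells of a type and less RNA per cell cannot be told apart in any value below.

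Among the 6 subtypes with more than 1 dog, EZH2, DNMT3A, DNMT1, HDAC1 and EED differed, and SUZ12, TET2, SETD2 and CREBBP did not pass the test. This made 5 of 9 members in limma's F test, where 56.8% of all genes tested were called, so the share of members was near the background. Between B and T, 2 members were higher in B, against a background of 24.2% of all genes, and 2 were lower, against 22.3%. Between PTCL and TZL, 3 members were higher and 0 lower, where 7.6% of all genes were higher and 6.07% lower. Between LBT and TZL, 4 members were higher and 0 lower, where 17.8% and 12.4% of all genes were. These 4, and the median for this comparison given below, include TET2, which passed the filter only with the LBT dogs. Its call was lost once values under the minimum were raised to it (log2 0.45, limma adjusted p = 0.164). Between MZL and TZL, 1 member was higher, with a background of 15.2%, and 1 lower, with 12.3%. Limma called 0 members between LBT and PTCL, where 0.467% of all genes were higher and 0.213% lower, 0 between BL and DLBCL, with 0.0133% higher and 0.0133% lower, and 0 between DLBCL and MZL, with 0% in each direction. The median log2 difference of the 9 members was -0.15 for B minus T, 0.59 for PTCL minus TZL, 0.63 for LBT minus TZL and 0.30 for MZL minus TZL, against 0.03, 0.03, 0.05 and 0.08 over all genes. At an unadjusted limma p under 0.05, LBT minus PTCL, BL minus DLBCL and DLBCL minus MZL gave 0, 1 and 0 members, the 1 being EZH2. Over all genes they gave 934, 426 and 977. The grade step, the difference between the high-grade and the low-grade subtype, was compared between the lineages as DLBCL minus MZL less PTCL minus TZL. In this comparison 0 members were higher and 1 was lower, where 0.747% and 1.21% of all genes were. The comparisons of PTCL, LBT and MZL with TZL share the 9 TZL dogs, so their values are not independent of each other.

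**Figure D1:**
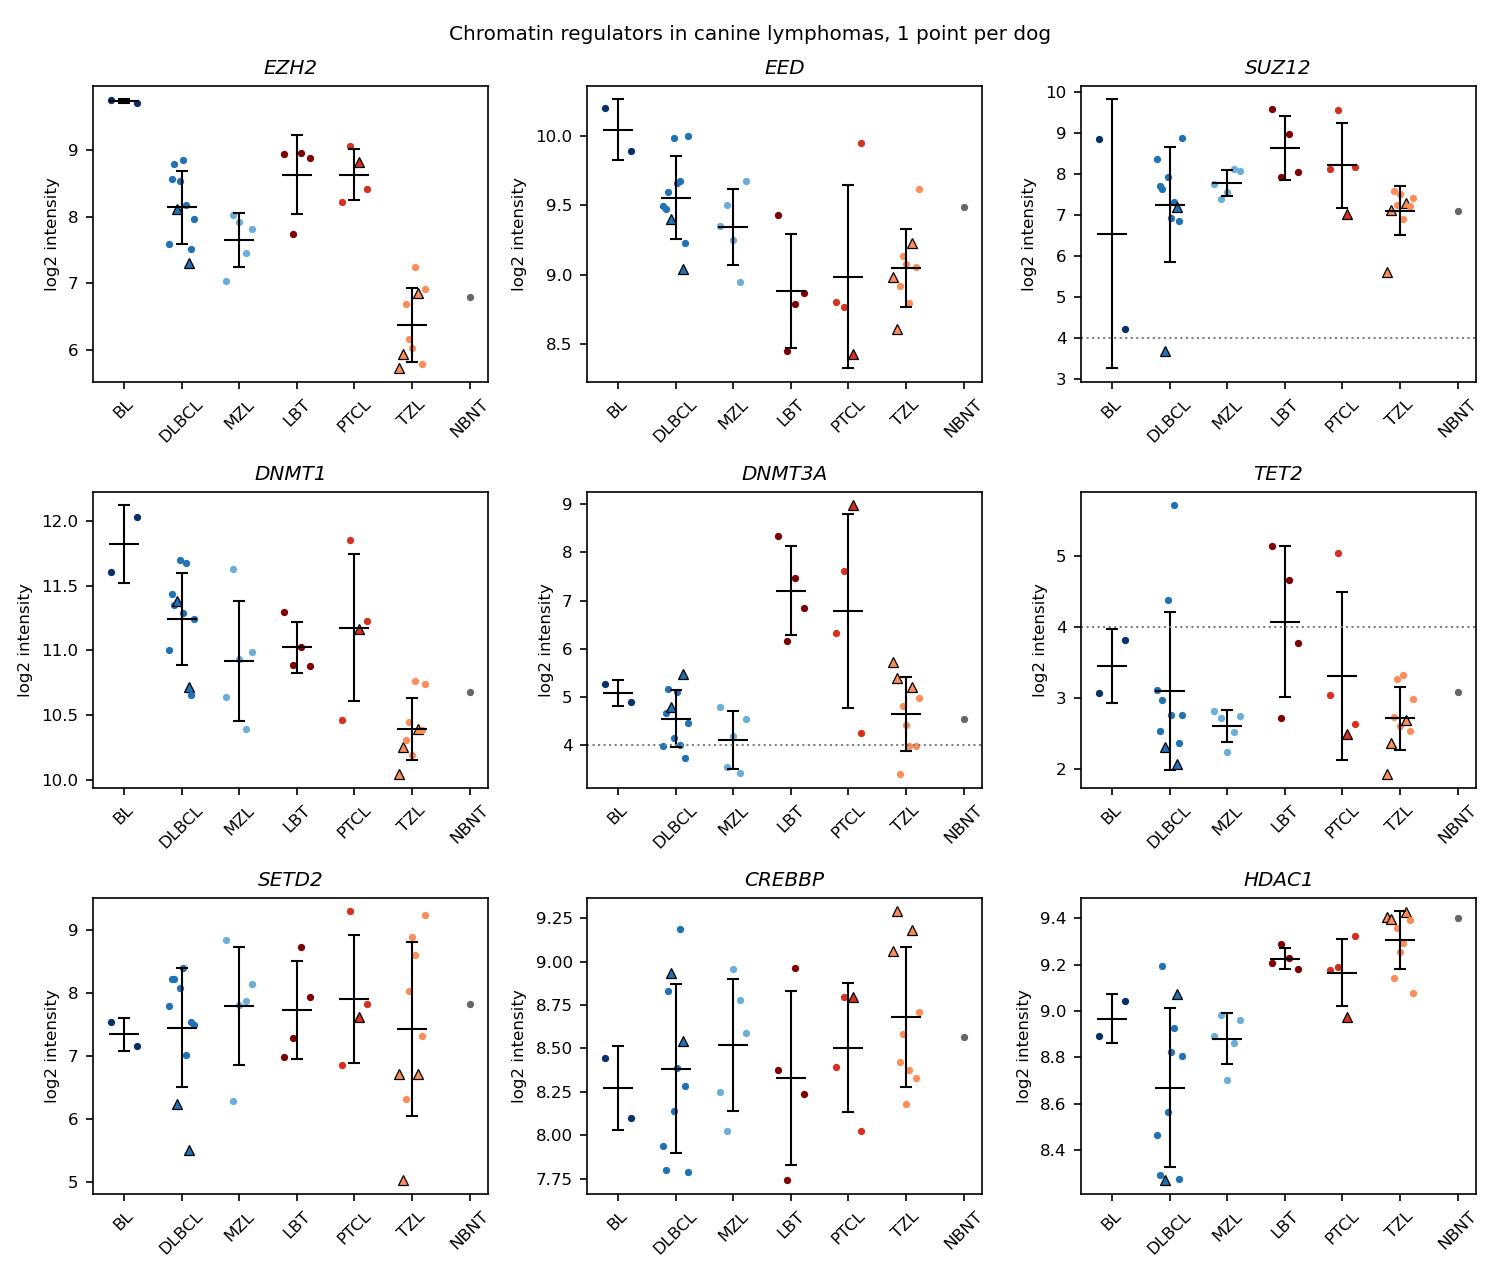
Log2 intensity of each member (vertical axis) in every dog by subtype (horizontal axis), with 1 point per dog, a bar and whiskers for the mean ± SD, triangles for the arrays of the set of 6, and a dotted line at the minimum of 4 where values come near it. EZH2 is lowest in TZL, where the mean is 6.37, DNMT3A stands at 7.21 in LBT and 6.79 in PTCL, and the T subtypes sit above the B subtypes for HDAC1.

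EZH2 was the member that separated the subtypes most strongly by the F test (F = 25.2, adjusted p = 2.5e-08), and it was low in TZL. The PTCL dogs had log2 intensities of 8.22, 9.06, 8.82 and 8.41, against 5.73 at the lowest, 6.16 at the median and 7.24 at the highest of the 9 TZL dogs. The LBT dogs had 8.93, 7.74, 8.96 and 8.87. Every PTCL and LBT dog was above every TZL dog. EZH2 was 4.77-fold higher in PTCL than in TZL (log2 difference 2.25, SE 0.31, adjusted p = 1.07e-05) and 4.77-fold higher in LBT than in TZL (2.25, SE 0.31, adjusted p = 2.41e-06). LBT and PTCL themselves had means of 8.63 ± 0.59 and 8.63 ± 0.38 (SD, n = 4 each), a difference of -0.0002 with an SE of 0.36 (adjusted p = 0.9997).

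The low-grade B subtype also had more EZH2 than the low-grade T subtype. The MZL dogs had 7.04, 8.02, 7.92, 7.45 and 7.82, and of these only replicate 1 fell inside the range of TZL. The difference was 2.43-fold (log2 1.28, SE 0.28, adjusted p = 0.00113). These 3 differences from TZL kept their call under every alternative and without any single dog, at 2.03 to 2.63 for PTCL, 2.10 to 2.55 for LBT and 1.16 to 1.43 for MZL on the log2 scale.

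The 2 BL dogs, at 9.75 and 9.71, had more EZH2 than any other dog. The DLBCL dogs ran from 7.31 through a median of 8.15 to 8.85, so these groups did not overlap. The log2 difference was 1.59 (SE 0.39) and did not pass the adjustment (adjusted p = 0.194, and 0.0519 to 0.9999 over all alternatives). In the order of the means, BL lay above PTCL and MZL above TZL by more than the larger SD of each pair, while PTCL, LBT, DLBCL and MZL each lay within that SD of the next. The NBNT dog, at 6.79, was inside the range of TZL.

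Since DLBCL had 8.14 ± 0.55 (SD, n = 10) and MZL 7.65 ± 0.40 (SD, n = 5), the grade step of EZH2 in the B lineage was 0.49 (SE 0.28, adjusted p = 0.479), against 2.25 in the T lineage. The difference between the steps was -1.77 (SE 0.41, adjusted p = 0.0224). It was not called without the set of 6 arrays (-1.50, adjusted p = 0.157), or without PTCL replicate 2 (-1.62, adjusted p = 0.0778) or PTCL replicate 3 (-1.70, adjusted p = 0.0527). In Golden Retrievers alone, where PTCL keeps only replicate 2, the difference between the steps was -2.07. Between the lineages as a whole the B dogs averaged 8.18 ± 0.77 and the T dogs 7.43 ± 1.26 (SD, n = 17 each), a log2 difference of 0.75 (SE 0.35, adjusted p = 0.0755). By grade, the difference was 1.28 among low-grade dogs (adjusted p = 0.00281) and -0.25 among high-grade dogs (adjusted p = 0.574), here and below without the intermediate-grade PTCL replicate 4. With equal weight per subtype the difference was 0.63 and was called (adjusted p = 0.0123), as it was with array weights (1.15, adjusted p = 0.00208) and without any 1 of LBT replicates 1, 3 and 4 and PTCL replicates 2 and 3 (adjusted p from 0.0415 to 0.0484).

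The genes whose levels were most like those of EZH2 over the 34 dogs were the mitotic kinesin KIF15 (Pearson's r = 0.91) and REXO5 (r = 0.90). The dogs share the subtype structure, so these coefficients describe the data and carry no test.

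EED was higher in B lymphomas than in T lymphomas. The B dogs ran from 8.95 through 9.51 to 10.20 and the T dogs from 8.43 through 8.92 to 9.95, with much overlap. B dogs averaged 9.55 ± 0.34 and T dogs 8.99 ± 0.40 (SD, n = 17 each), a 1.47-fold difference (log2 0.56, SE 0.13, adjusted p = 0.000848). Among high-grade dogs the difference was 0.85 (adjusted p = 0.000958), and in the low-grade subtypes alone it came to 0.30 and was not called (adjusted p = 0.189). The order of the means was BL (10.05), DLBCL (9.56), MZL (9.35), TZL (9.05), PTCL (8.99) and LBT (8.88), in which BL stood above DLBCL and MZL above TZL by more than the larger SD, by 0.49 and 0.30. A single T dog, PTCL replicate 4 at 9.95, was far above the other PTCL dogs at 8.80, 8.76 and 8.43. The F test for EED (F = 4.89, adjusted p = 0.00561) was lost after adjustment for the actin and GAPDH controls (adjusted p = 0.0856). The B minus T call for EED was kept with that adjustment. It was lost in 1 of 52 alternatives, the low-grade dogs. The 3' minus 5' value of the GAPDH control, a measure of RNA quality, averaged 3.51 in BL, 3.43 in DLBCL and 2.94 in MZL, against 2.86 in LBT, 2.82 in PTCL and 2.78 in TZL. That of the actin control averaged 0.98 in BL, 1.37 in DLBCL, -0.48 in MZL, -0.58 in LBT, 0.72 in PTCL and 0.75 in TZL. The part of these controls in the result was not tested beyond that fit. The genes most like EED were CDC16 (r = 0.81), a subunit of the anaphase-promoting complex, and DCLRE1C (r = 0.80), the Artemis nuclease of DNA repair.

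SUZ12 varied widely inside subtypes. The 2 BL dogs had 8.87 and 4.23, and DLBCL replicate 4 had 3.70, below the minimum, while the other DLBCL dogs lay between 6.87 and 8.90. The LBT dogs, at 9.59, 7.94, 8.98 and 8.06, were all above the TZL dogs, which ran from 5.62 through 7.26 to 7.61. The log2 difference of LBT from TZL was 1.53 (SE 0.66) with an adjusted p of 0.0784 in the fit of all subtypes. It was called with those 2 groups alone in the fit (adjusted p = 0.00704), without BL replicate 1 or 2 (adjusted p = 0.0410 each) and without DLBCL replicate 4 (adjusted p = 0.0285), where the difference itself is the same and the estimated spread is smaller. PTCL differed from TZL by 1.11 (SE 0.66, adjusted p = 0.290) and MZL from TZL by 0.68 (SE 0.61, adjusted p = 0.441). The B minus T difference was -0.40 (SE 0.40, adjusted p = 0.427). It was -1.11 and called after adjustment for the actin and GAPDH controls (adjusted p = 0.0308), and 0.68 among low-grade dogs (adjusted p = 0.0741). DLBCL differed from MZL by -0.53 (SE 0.60, adjusted p = 0.772), BL from DLBCL by -0.71 (SE 0.85, adjusted p = 0.952) and LBT from PTCL by 0.42 (SE 0.78, adjusted p = 0.889), and the grade step of B less that of T was -1.64 (SE 0.90, adjusted p = 0.408). No step in the order of the SUZ12 means exceeded the larger SD of its pair. The F test for SUZ12 (F = 1.89, adjusted p = 0.171) was called after adjustment for the actin and GAPDH controls (F = 4.98, adjusted p = 0.00684). F was 4.57 without BL replicate 1 and 3.78 in Golden Retrievers alone, fits that leave 1 BL dog.

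Of 7 tested genes that bind PRC2 or remove its mark, 1 was higher and 3 lower in B than in T, with a median log2 difference of -0.25 against 0.03 over all genes, of which 24.2% were higher and 22.3% lower. The H3K27 demethylase KDM6B was lower in B (-2.19, SE 0.33, adjusted p = 2.3e-06), as was the PRC2-associated reader PHF1 (-1.19, SE 0.33, adjusted p = 0.0033), and the recruitment factor JARID2 was higher (0.87, SE 0.32, adjusted p = 0.0273). In LBT against TZL 2 were higher and 2 lower, with a median of -0.16 against 0.05 over all genes, of which 17.8% were higher and 12.4% lower. PHF1 was lower (-2.50, SE 0.35), and MTF2 (1.19, SE 0.17), which helps PRC2 to bind DNA, and JARID2 (2.15, SE 0.39) were higher. In PTCL against TZL 2 were higher and 1 lower, with a median of 0.26 against 0.03 over all genes, of which 7.6% were higher and 6.07% lower. The called genes were JARID2 at 1.91 (SE 0.39), PHF1 at -1.70 (SE 0.35) and MTF2 at 0.68 (SE 0.17). In MZL against TZL 1 was higher and 2 were lower, with a median of -0.06 against 0.08 over all genes, of which 15.2% were higher and 12.3% lower. The called genes were JARID2 at 2.04 (SE 0.36), PHF1 at -1.85 (SE 0.32) and KDM6B at -1.62 (SE 0.42). JARID2 was also the 1 gene of the list with a lower grade step in the B lineage (-2.19, SE 0.52, adjusted p = 0.0232), where 1.21% of all genes were. Of 11 tested genes of PRC1, the complex that reads H3K27me3 and marks H2A, 4 were higher and 1 lower in LBT than in TZL, with a median of 0.43. The scaffold subunit PHC1 (2.16, SE 0.42) and the ubiquitin ligase RNF2 (1.41, SE 0.29) were higher and PCGF5 (-1.29, SE 0.38) was lower. In B against T 0 of the 11 were higher and 3 lower, with a median of -0.22 and PHC1 at -1.50 (SE 0.31), at an adjusted p of 0.000212.

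DNMT1 was lowest in TZL, as EZH2 was, but the differences were smaller and depended more on the processing. The PTCL dogs had 10.46, 11.85, 11.16 and 11.23 and the LBT dogs 11.30, 10.89, 11.03 and 10.88, against 10.04 at the lowest, 10.39 at the median and 10.77 at the highest TZL dog. The LBT and TZL dogs did not overlap, and PTCL replicate 1 lay inside the range of TZL. DNMT1 was 1.72-fold higher in PTCL than in TZL (log2 0.78, SE 0.22, adjusted p = 0.0177) and 1.55-fold higher in LBT than in TZL (0.63, SE 0.22, adjusted p = 0.0321). Without PTCL replicate 2 the first was 0.56 and not called (adjusted p = 0.152), nor was it without the set of 6 arrays (0.71, adjusted p = 0.116). The second was not called without LBT replicate 1 (0.54, adjusted p = 0.119), LBT replicate 3 (0.63, adjusted p = 0.0672) or TZL replicate 1 (0.59, adjusted p = 0.0538), and in 11 of 51 alternatives in all. MZL, at 10.64, 11.63, 10.93, 10.39 and 10.98, differed from TZL by 0.52 (SE 0.21, adjusted p = 0.0600).

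B dogs had more DNMT1 than T dogs, 11.22 ± 0.45 against 10.73 ± 0.48 (SD, n = 17 each), a 1.41-fold difference (log2 0.49, SE 0.16, adjusted p = 0.0133). Among high-grade dogs it was 0.26 and not called (adjusted p = 0.354), and after adjustment for the actin and GAPDH controls it was 0.28 (adjusted p = 0.244). The 2 BL dogs, at 11.61 and 12.03, averaged 11.82, above the DLBCL mean of 11.25 by more than the SD of 0.36, with an adjusted p of 0.886 for that difference. The second, dimmer probe set of DNMT1 gave differences of like size, 0.45 for B minus T, 0.75 for PTCL minus TZL and 0.68 for LBT minus TZL, none called among all probe sets (adjusted p = 0.0968, 0.168 and 0.142). The genes most like DNMT1 were FANCD2 (r = 0.89), a protein of interstrand crosslink repair, and EZH2 (r = 0.84).

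DNMT3A was high in LBT and in most PTCL dogs and near the minimum elsewhere. The LBT dogs had 8.34, 6.17, 7.46 and 6.86 and the PTCL dogs 6.33, 7.61, 8.97 and 4.25. The TZL dogs ran from 3.40 through 4.81 to 5.73 and the B dogs from 3.44 through 4.56 to 5.48. Of the 8 LBT and PTCL dogs, 7 were above every other dog tested, and the remaining dog, PTCL replicate 4 of intermediate grade, was inside the range of TZL. In 7 of 34 dogs, 4 B and 3 TZL, DNMT3A was below the minimum, so folds were taken after raising such values to the minimum. By this measure DNMT3A was 5.58-fold higher in LBT than in TZL and 4.18-fold higher in PTCL than in TZL. With values as measured, the log2 differences were 2.55 (SE 0.54, adjusted p = 0.000551) and 2.13 (SE 0.54, adjusted p = 0.00696).

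The LBT difference was called under every alternative and without any single dog (2.17 to 2.99). The PTCL difference was not called without PTCL replicate 3, the highest dog and 1 of the set of 6 arrays (1.41, adjusted p = 0.0855), nor with the 2 groups alone in the fit (2.13, adjusted p = 0.0534). Without the whole set it was 1.80 (adjusted p = 0.0370). B dogs were lower than T dogs by 2.35-fold after the same raising (as measured, log2 -1.27, SE 0.41, adjusted p = 0.0113). This difference came to -2.75 among high-grade dogs (adjusted p = 5.9e-06) and -0.55 among low-grade dogs (adjusted p = 0.268), and with array weights it was -0.63 (adjusted p = 0.119). The grade step of B minus that of T was -1.69 (SE 0.72, adjusted p = 0.265), and without PTCL replicate 4 it was -2.53 (adjusted p = 0.0161). MZL differed from TZL by -0.55 (SE 0.50, adjusted p = 0.436). The genes most like DNMT3A were STOX2 (r = 0.90) and the tyrosine phosphatase PTPRR (r = 0.90).

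TET2 was near the limit of the arrays. It lay below the minimum in 29 of 34 dogs, among them all 2 BL, 5 MZL and 9 TZL dogs, and entered the tests through the 5 others. Of these, 2 were LBT dogs, and without them TET2 would not have reached the 4 dogs that the filter asks for. The LBT dogs had 5.14, 2.73, 4.67 and 3.78, PTCL replicate 2 had 5.05, and DLBCL replicates 5 and 8 had 4.38 and 5.72. The measured means were 4.08 in LBT, 1.06-fold above the minimum, and 2.72 in TZL. Since 2 of the 4 LBT dogs and all 9 TZL dogs were below the minimum, the size of this difference is not known. The fit gave a log2 difference of 1.36 (SE 0.50, adjusted p = 0.0392), which came to 0.45 once values under the minimum were raised to it (adjusted p = 0.164). It was also lost without LBT replicate 1, 3 or 4 or TZL replicate 1, 2 or 8 (adjusted p from 0.0513 to 0.191), and in 13 of 50 alternatives in all. A second probe set of TET2, also below the minimum in 29 of 34 dogs, differed by 1.31 (adjusted p = 0.0229). The remaining probe sets, below the minimum in 33 and in all 34 dogs, had means of 3.24 and 2.53 in LBT against 3.01 and 2.21 in TZL. The other differences of TET2 lay between groups mostly or wholly below the minimum. After raising such values to the minimum, LBT minus PTCL gave 0.19 (adjusted p = 0.884), PTCL minus TZL 0.26 (adjusted p = 0.554) and DLBCL minus MZL 0.21 (adjusted p = 0.765), against 0.77, 0.59 and 0.49 as measured, none of them called. The F test for TET2 (F = 1.94, adjusted p = 0.162) was called without DLBCL replicate 8 (F = 3.10, adjusted p = 0.0413), with most values still below the minimum.

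Among 9 other tested genes that write, erase or read DNA methylation, 2 were higher and 0 lower in LBT than in TZL, with a median of 0.08 against 0.05 over all genes, of which 17.8% were higher and 12.4% lower. UHRF1, which brings DNMT1 to newly replicated DNA, was higher in LBT (log2 2.35, SE 0.29, adjusted p = 4.4e-07) and in PTCL (1.60, SE 0.29, adjusted p = 0.00033) than in TZL. It was the 1 gene of the 9 called in PTCL, where 7.6% of all genes were higher. ZBTB38, a reader of methylated DNA, was higher in LBT than in TZL (0.80, SE 0.30) and lower in B than in T (-0.86, SE 0.19). In B against T, where 24.2% of all genes were higher and 22.3% lower, 4 of the 9 were higher and 2 lower, with a median of 0.23, among them the repair glycosylase TDG (0.48, SE 0.16). In MZL against TZL the methyl-CpG reader MBD2 was lower (-0.51, SE 0.13), the 1 gene called, with a median of 0.31 over the list, where 12.3% of all genes were lower.

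SETD2 did not pass the test between subtypes (F = 0.23, adjusted p = 0.949). Its means ran from 7.34 in BL to 7.90 in PTCL, while the dogs of TZL alone spanned 5.03 to 9.23, with an SD of 1.38. The 2 other probe sets of SETD2 had smaller SDs in TZL and gave LBT minus TZL differences of -0.55 (adjusted p = 0.173) and -0.46 (adjusted p = 0.377), against 0.31 (SE 0.61, adjusted p = 0.744) for the probe set of highest mean, so the probe sets disagreed in sign and none was called. The B minus T difference was -0.07 (SE 0.34, adjusted p = 0.879). Of 22 tested lysine methyltransferases and demethylases outside the list of members, 9 were higher and 5 lower in LBT than in TZL, with a median of 0.53 against 0.05 over all genes, of which 17.8% were higher and 12.4% lower. The H3K4 demethylase KDM1A (1.44, SE 0.19, adjusted p = 1.9e-06) and the H3K36 methyltransferase NSD2 (2.76, SE 0.43, adjusted p = 1.7e-05) were higher, and the enhancer methyltransferase KMT2D was lower (-1.90, SE 0.39, adjusted p = 0.00041). KDM1A and NSD2 were the 2 genes of the list called in PTCL against TZL (0.69, SE 0.19, and 1.90, SE 0.43) and also the 2 called in MZL against TZL (0.88, SE 0.18, and 1.35, SE 0.40). Over all genes 7.6% were higher in PTCL and 15.2% in MZL, so 2 of 22 was near the first share and below the second. In B against T 2 of the 22 were higher and 5 lower, with a median of -0.05, where 24.2% and 22.3% of all genes were.

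CREBBP did not pass the test either (F = 0.67, adjusted p = 0.686), with means from 8.27 in BL to 8.68 in TZL and no step beyond the larger SD. The largest difference was that of LBT from TZL, -0.35 (SE 0.26, adjusted p = 0.331), and B minus T gave -0.15 (SE 0.15, adjusted p = 0.436). CREBBP was higher in the set of 6 arrays, 3 of which are TZL, and without the set the LBT minus TZL difference was -0.10 (adjusted p = 0.810). Another, dimmer probe set gave -0.61 for LBT minus TZL (adjusted p = 0.371), and the dimmest was below the minimum in 28 of 34 dogs, among them all 4 LBT dogs. The dimmest was called among all probe sets for MZL minus TZL (-0.77, adjusted p = 0.0453), against -0.16 (adjusted p = 0.660) for the probe set used. It was below the minimum in all 5 MZL and 6 of 9 TZL dogs and passed the filter only with the TZL dogs, so the size of that difference is not known. Of 13 other tested acetyltransferases and bromodomain readers, 3 were higher and 6 lower in B than in T, with a median of -0.47 against 0.03 over all genes, of which 24.2% were higher and 22.3% lower. The acetyltransferase KAT2A was higher in B (1.75, SE 0.26, adjusted p = 1.2e-06), and the reader BRD3 (-1.67, SE 0.36) and the acetyltransferase KAT6B (-0.89, SE 0.21) were lower. HAT1, which acetylates new histones, was higher in PTCL (0.90, SE 0.21) and in LBT (0.90, SE 0.21) than in TZL. In PTCL it was the 1 gene of the 13 called, where 7.6% of all genes were higher, so the count was near the background. In LBT 2 of the 13 were higher and 1 lower, against 17.8% and 12.4% of all genes.

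HDAC1 was lower in B lymphomas and varied little among T lymphomas. The B dogs ran from 8.27 through 8.86 to 9.20 and the T dogs from 8.97 through 9.25 to 9.43, and 4 of 17 B dogs were above the lowest T dog. B dogs averaged 8.77 ± 0.29 and T dogs 9.25 ± 0.13 (SD, n = 17 each), a 1.40-fold difference (log2 -0.49, SE 0.09, adjusted p = 3.97e-05) that was called under every alternative and without any single dog (-0.56 to -0.39). The second probe set gave -0.43 (adjusted p = 0.000444). The T cell marker score given above separates the same dogs, and its part in the difference was not tested. All 5 MZL dogs, between 8.70 and 8.98, were below all 9 TZL dogs, between 9.08 and 9.43, a 1.34-fold difference (log2 -0.43, SE 0.14, adjusted p = 0.0248). This call was lost without MZL replicate 3 (-0.38, adjusted p = 0.0687), without the set of 6 arrays (-0.37, adjusted p = 0.0668), with sex, breed and age as covariates (-0.38, adjusted p = 0.0967) and in Golden Retrievers alone (-0.37, adjusted p = 0.0724). In the order of the means, TZL (9.31), LBT (9.23) and PTCL (9.17) lay within the larger SD of each other, PTCL lay above BL (8.97) by more, and BL, MZL (8.88) and DLBCL (8.67) lay within it. The NBNT dog had 9.40, inside the range of the T dogs. The genes most like HDAC1 were OSTF1 (r = 0.86) and MYADM (r = 0.83).

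Of 17 other tested deacetylases and corepressors, 2 were higher and 3 lower in B than in T, with a median of -0.07, where 24.2% of all genes were higher and 22.3% lower. MTA3, a subunit of the NuRD complex found with BCL6 in human B cells, was higher in B (2.32, SE 0.34, adjusted p = 1.5e-06). HDAC2, the close relative of HDAC1, was higher in LBT (1.14, SE 0.16, adjusted p = 4.6e-06), in PTCL (0.85, SE 0.16, adjusted p = 0.0005) and in MZL (0.55, SE 0.15, adjusted p = 0.00584) than in TZL. For HDAC1 the first 2 of these differences were -0.08 (SE 0.15, adjusted p = 0.737) and -0.14 (SE 0.15, adjusted p = 0.616). HDAC2 also had a lower grade step in the B lineage (-0.83, SE 0.22, adjusted p = 0.0359). In LBT against TZL 3 of the 17 were higher and 2 lower, with a median of 0.37, where 17.8% and 12.4% of all genes were, and the corepressor RCOR1, a partner of KDM1A, was among the higher (2.05, SE 0.39).

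**Figure D2:**
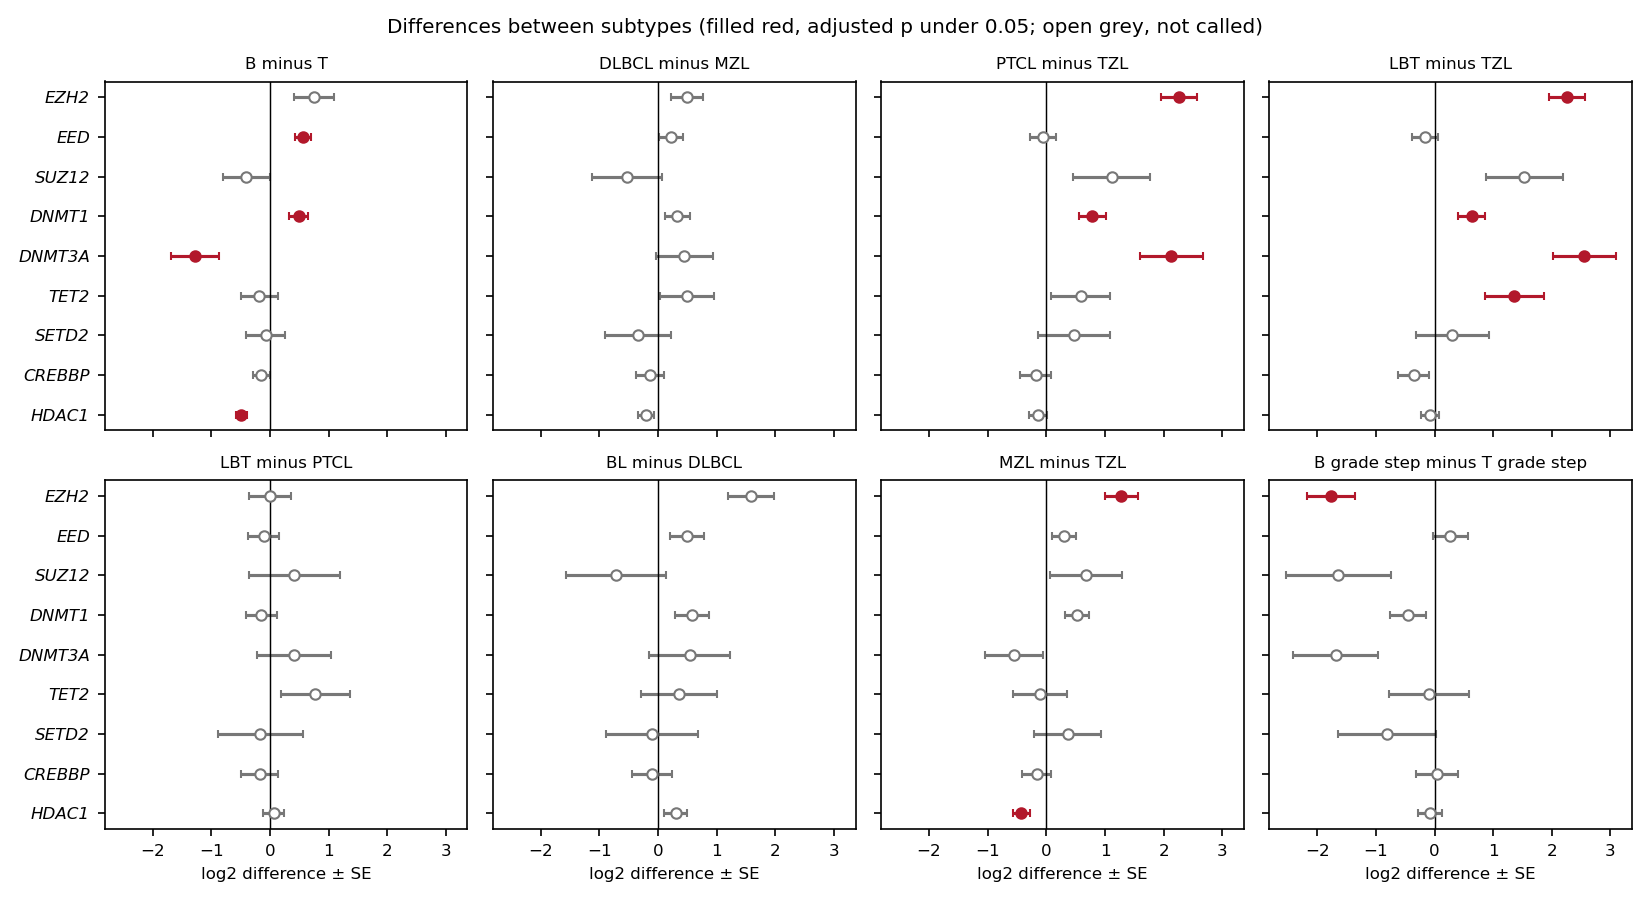
Log2 differences of the 9 members in 8 comparisons (horizontal axis), with whiskers for the SE of the fit, filled red points for an adjusted p under 0.05 and open grey points for the others. EZH2 stands at 2.25 in both PTCL minus TZL and LBT minus TZL and at -1.77 in the comparison of the grade steps, and DNMT3A at 2.13 and 2.55.

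Cell division genes were higher in the 3 subtypes set against TZL. Of 22 mitosis genes tested, 22 were higher in LBT than in TZL (median log2 difference 3.11), 21 in PTCL (2.92) and 9 in MZL (1.20), and of 28 DNA replication genes 25, 22 and 16 were (medians 1.56, 1.35 and 0.95). Over all genes 17.8%, 7.6% and 15.2% were higher in these comparisons, and the median was 0.05, 0.03 and 0.08. The mitosis score, the mean log2 intensity of the 22 genes, ran from 7.74 to 8.25 in LBT, 6.60 to 8.67 in PTCL, 5.53 to 7.11 in MZL and 3.37 to 6.43 in TZL. DNMT1 was not called in MZL. In B against T 5 of 22 mitosis and 13 of 28 replication genes were higher (medians 0.87 and 0.67), where DNMT1 was called and EZH2 was not. Over all genes 24.2% were higher there, so the share of mitosis genes was near the background. In the comparison of grade steps, where EZH2 was called, 0 of 22 mitosis genes were called by limma (median -1.45) and 3 of 28 replication genes were lower (median -0.85). Over all genes 0.747% were higher and 1.21% lower there. Between DLBCL and MZL limma called 0 mitosis genes, with a median of 1.36, where 0% of all genes were called in each direction. The part of cell division in the differences of EZH2, DNMT1 and DNMT3A was not tested.

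Some markers of other cells were also called in these comparisons. Over all genes 7.6% were higher and 6.07% lower in PTCL than in TZL. In LBT against TZL the shares were 17.8% and 12.4%, in MZL against TZL 15.2% and 12.3%, and in B against T 24.2% and 22.3%. The macrophage and dendritic cell counts in LBT and the stromal counts in B against T did not exceed these shares. Of 9 macrophage and dendritic cell genes, 2 were higher in PTCL than in TZL, CD14 and CD68, and the mean over the 9 genes ran from 4.16 to 7.27 in PTCL and from 2.59 to 6.95 in TZL. In LBT CD14 was higher and MARCO lower than in TZL, and the score ran from 3.40 to 4.60. The median log2 difference of the 9 genes in LBT against TZL was -1.41, so CD14 went against the median of its list. MARCO was below the minimum in all 4 LBT dogs and 5 of 9 TZL dogs and passed the filter only with the TZL dogs. The B cell score ran from 2.35 to 6.37 in LBT, 3.49 to 8.59 in PTCL and 3.21 to 8.48 in TZL, with 5 of 8 genes lower in LBT than in TZL and 0 of 8 called between PTCL and TZL. The 3 plasma cell genes tested, JCHAIN, PRDM1 and XBP1, were lower in LBT and in MZL than in TZL. Their score ran from 7.10 to 8.05 in LBT, 7.36 to 7.84 in MZL and 8.76 to 10.77 in TZL. PRDM1 was below the minimum in all 4 LBT and 5 MZL dogs and in 1 of 9 TZL dogs. It passed the filter only with the TZL dogs, so its call against TZL was not independent of the filter. SDC1 was below the minimum in all 17 B and 17 T dogs and was not tested. The 3 genes were also all lower in B than in T (median -1.40), with a score of 6.94 to 10.50 in B and 7.10 to 10.77 in T. Of 8 endothelial genes with a probe set only 3 were tested, and of these 1, KDR, was higher in PTCL than in TZL. The score ran from 4.85 to 5.83 in PTCL and 2.84 to 4.98 in TZL. KDR was below the minimum in all 9 TZL and 17 B dogs, in 2 of 4 PTCL dogs and in 2 of 4 LBT dogs. It passed the filter only through PTCL and LBT dogs, so its call was not independent of the filter. Of 7 stromal genes FBN1 was higher and THY1 lower in B than in T and in MZL than in TZL. These 2 genes went opposite ways and the rest were not called, so the counts give no single direction for stroma. FBN1 was below the minimum in 2 of 17 B dogs, against 12 for COL1A1, 12 for COL1A2 and 13 for COL3A1. THY1 averaged 5.39 in B and 7.79 in T. The stromal score ran from 2.88 to 9.80 in B, 3.35 to 6.31 in T, 3.14 to 8.52 in MZL and 3.57 to 6.31 in TZL. The part of these cells in the members' differences was not tested.

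Within a subtype the relation to the mitosis score could be tested in DLBCL (10 dogs) and TZL (9 dogs). The 9 members against the score and the 3 pairs of PRC2 subunits made 24 relations, and none passed the Benjamini-Hochberg adjustment. The relation of DNMT1 to the score in DLBCL had the smallest p, with Pearson's r = 0.78 (permutation p = 0.00896, adjusted p = 0.215) and Spearman's rho = 0.76 (permutation p = 0.015, adjusted p = 0.36), and r was 0.74 without the 2 dogs farthest from the median score. EED in DLBCL had r = 0.72 (permutation p = 0.0183, adjusted p = 0.22) and rho = 0.64 (permutation p = 0.0537, adjusted p = 0.403), with r = 0.88 without those 2 dogs. EZH2 had r = 0.38 in DLBCL (permutation p = 0.276, adjusted p = 0.771) and rho = 0.35 (permutation p = 0.328, adjusted p = 0.748), with r = 0.35 without the 2 dogs. In TZL it had r = 0.54 (exact permutation p = 0.133, adjusted p = 0.638) and rho = 0.47 (exact permutation p = 0.213, adjusted p = 0.748), with r = 0.44 without the 2 dogs. The largest r with the score in TZL was that of CREBBP, 0.63 (exact permutation p = 0.0741, adjusted p = 0.542). Its rho was 0.70 (exact permutation p = 0.0433, adjusted p = 0.403), and r was 0.35 without the 2 dogs. Without the arrays of the set, DNMT1 in DLBCL had r = 0.75 over 8 dogs (exact permutation p = 0.0325, adjusted p = 0.39), EED r = 0.89 (exact permutation p = 0.00335, adjusted p = 0.0804) and EZH2 r = 0.24 (exact permutation p = 0.56, adjusted p = 0.936), and in TZL EZH2 had r = 0.72 over 6 dogs (exact permutation p = 0.108, adjusted p = 0.479). All p-values are two-sided. For the PRC2 pairs, EZH2 and EED had r = 0.57 in DLBCL (permutation p = 0.0903, adjusted p = 0.542) and rho = 0.48 (permutation p = 0.168, adjusted p = 0.748), and r = 0.27 in TZL (exact permutation p = 0.505, adjusted p = 0.771), which turned to -0.34 without the 2 dogs farthest out. EZH2 and SUZ12 had r = -0.0059 in DLBCL (permutation p = 0.99, adjusted p = 0.991) and 0.36 in TZL (exact permutation p = 0.377, adjusted p = 0.771). EED and SUZ12 had r = 0.42 in DLBCL (permutation p = 0.236, adjusted p = 0.771) and 0.23 in TZL (exact permutation p = 0.439, adjusted p = 0.771). Without the array set, r in DLBCL was 0.35 for EZH2 and EED, -0.23 for EZH2 and SUZ12 and 0.58 for EED and SUZ12 (exact permutation p = 0.391, 0.583 and 0.129 over 8 dogs), and in TZL -0.02, -0.30 and 0.37 (exact permutation p = 0.978, 0.585 and 0.457 over 6 dogs).

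**Figure D3:**
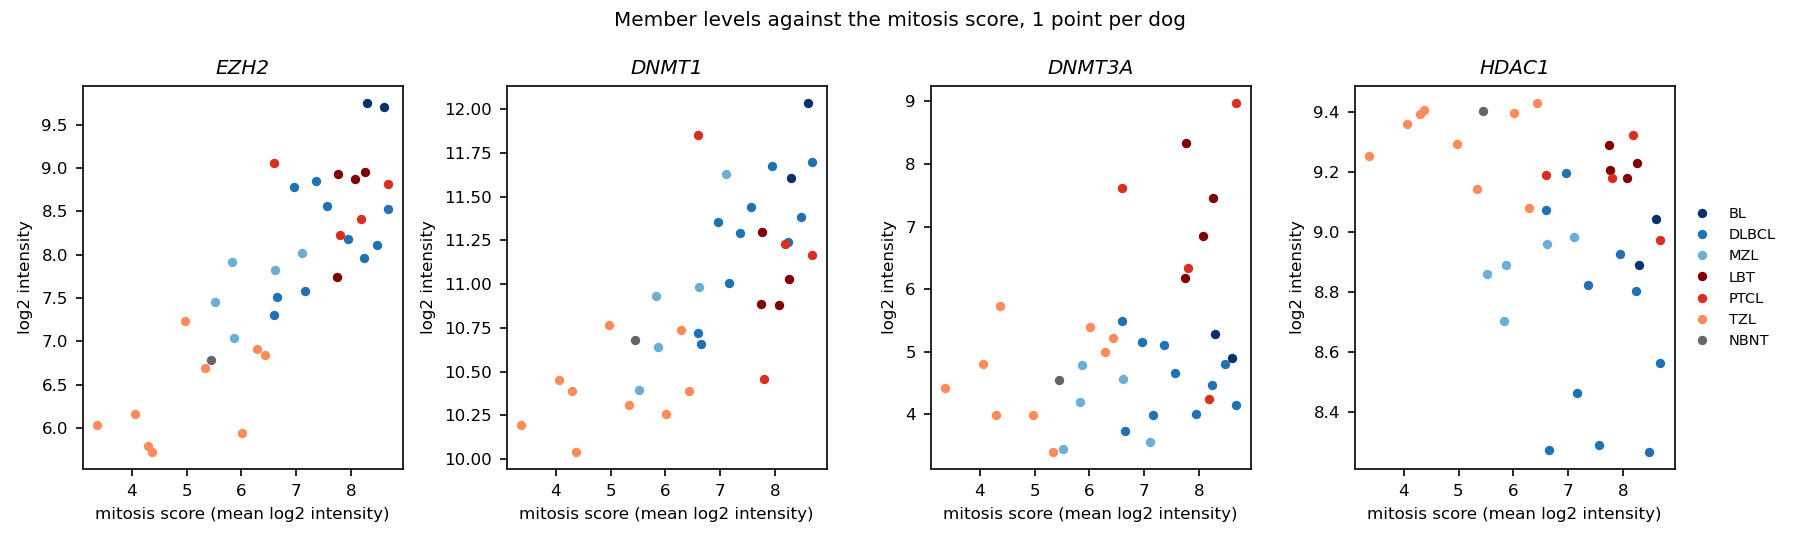
Log2 intensity of 4 members (vertical axis) against the mitosis score, the mean log2 intensity of 22 mitosis genes (horizontal axis), with 1 point per dog coloured by subtype. For EZH2 and DNMT1 the TZL dogs, with scores of 3.37 to 6.43, lie at the lower left, for DNMT3A the LBT dogs and 3 of 4 PTCL dogs stand above the other dogs of like score, and for HDAC1 the T dogs stay high at low and high scores.

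**Figure D4:**
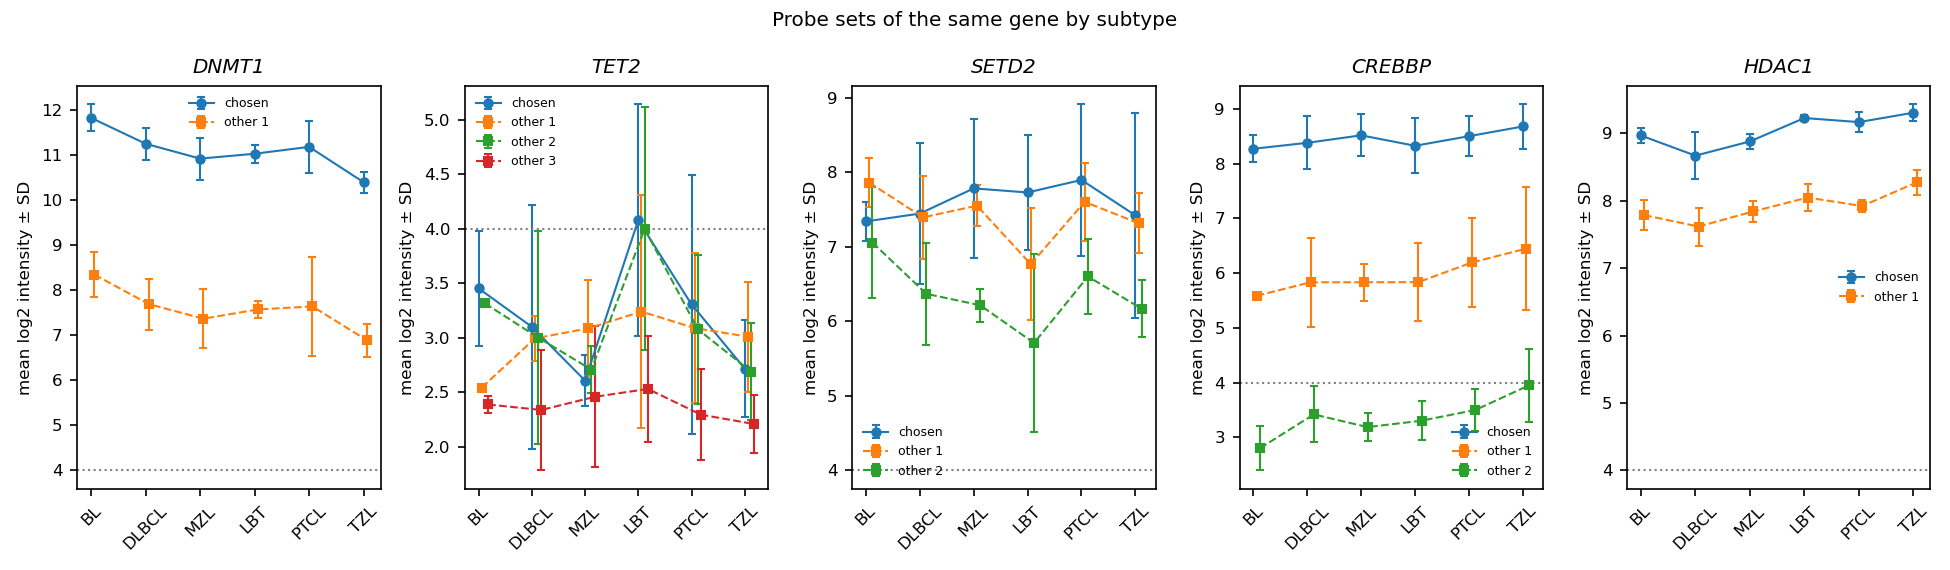
Mean log2 intensity ± SD (vertical axis) by subtype (horizontal axis) for each probe set of the 5 members with several, with a solid line for the probe set used and dashed lines for the others. The HDAC1 and DNMT1 probe sets run in parallel, the TET2 probe sets lie near or below the dotted minimum of 4, and those of SETD2 differ in direction between LBT and TZL.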

How the data were processed

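The authors deposited linear intensities for each array and probe set, which the submitters' processing notes tie to GCRMA, with no version named there. Those under 1 were set to 1, and log2 was taken. The platform annotation names genes without a genome build, so no positions are given. Each gene was represented by its probe set of highest mean over 36 arrays, and genes with log2 of at least 4 in at least 4 of 34 dogs were tested (7500 genes). Subtype and phenotype labels gave the groups. Nothing says more of how dogs were sampled, and each dog is a replicate. R 4.3.3 with limma 3.58.1 (lmFit, eBayes) gave two-sided p-values, adjusted by Benjamini-Hochberg over all genes tested and called under 0.05. B and T were compared with 2 group means, and all else by contrasts among 6 subtype means. SE values come from these fits. Correlations within subtypes used SciPy 1.17.1, with exact permutation of 9 dogs or fewer and 100000 resamples of 10. The steps were tested on simulated data.

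The members, the gene lists and the tests were chosen with earlier results of these data known. In each comparison every called member and the 2 uncalled members with the largest difference are given, with up to 3 called genes of smallest adjusted p per list. EP300 and 2 relations planned with it in each subtype were not analysed here. Alternatives were the filter, the minimum as a floor, centring, quantile normalization, the variance model, array weights, other probe sets or their mean, both arrays of the repeated case, covariates, breed, grade, groups in the fit, subtype weights, the set of 6 arrays, the 3' to 5' controls, and each dog left out.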

Additional observations from a re-analysis of the deposited data

Results flagged for a closer look

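Over 45 checks of a member within a subtype of 4 to 10 dogs, 3 dogs lay far from the rest of their group, where chance gives about 1 in 20. EZH2 in LBT replicate 2 was 7.74 on the log2 scale, while the nearest LBT dog had 8.87. SUZ12 in DLBCL replicate 4 was 3.70, below the minimum, with the nearest DLBCL dog at 6.87, and SUZ12 in TZL replicate 1 was 5.62, with the nearest TZL dog at 6.91. Both SUZ12 dogs belong to the set of 6 arrays, in which SUZ12 was lower within subtypes (log2 -1.40, limma adjusted p = 0.0306), and the part of the set in these values was not tested further.

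For EZH2, the contrast of DLBCL with MZL was smaller than that of PTCL with TZL by a log2 difference of -1.77 (limma adjusted p = 0.0224). It was not called in 4 of 50 alternatives: without the set of 6 arrays (adjusted p = 0.157), in Golden Retrievers only (-2.07, with 1 PTCL dog), and without PTCL replicate 2 (adjusted p = 0.0778) or PTCL replicate 3 (adjusted p = 0.0527). Grade and subtype cannot be told apart in this contrast.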

How the results depend on the processing

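Of 19 called differences of single members, 9 kept their call throughout, namely those of EZH2 in all comparisons but the grade step, HDAC1 in B against T, DNMT3A in LBT against TZL, and DNMT1, DNMT3A and HDAC1 in the F test. Over 1864 alternative values of 37 results, 1794 kept direction and side of the threshold. The members called between LBT and TZL were 2 in place of 4 with sex, breed and age as covariates, in Golden Retrievers only, with the array set as a block, without the array set and after adjustment for the actin and GAPDH controls, and 2 to 5 with single dogs left out (2 without LBT replicate 1, LBT replicate 3 or TZL replicate 1). Between MZL and TZL 1 member in place of 2 was called with covariates, in Golden Retrievers only and without the set, and 1 to 3 with single dogs left out (1 without MZL replicate 3). In the comparison of grade steps 0 members were called without the set, and 0 to 2 with single dogs left out (0 without PTCL replicate 2 or 3, and 2 without PTCL replicate 4). Differences that were not called turned sign in Golden Retrievers only for LBT minus PTCL (SUZ12 -1.23, TET2 -1.32). That setting leaves 1 PTCL dog, replicate 2. Others turned sign among high-grade dogs for EZH2 (B minus T, -0.25) and among low-grade dogs for SUZ12 (B minus T, 0.68). SUZ12 in BL minus DLBCL ran from -3.03 to 1.61 with single dogs left out (1.61 without BL replicate 2). The causes were not tested. The stricter filter left TET2 untested. Median centring and quantile normalization turned no called difference. No paired analysis was possible because the dogs are separate animals whose replicate numbers only name them. TET2 and part of DNMT3A lay under the minimum, which limits their folds.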

Other observations

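The SWI/SNF remodelling complex, which slides and evicts nucleosomes and opposes Polycomb in several systems, had 17 tested subunits. In LBT against TZL 3 were higher and 1 lower, with a median log2 difference of 0.24 against 0.05 over all genes, of which 17.8% were higher and 12.4% lower. SMARCB1, a core subunit, was higher in LBT (1.69, SE 0.19, limma adjusted p = 1.4e-07), in PTCL (1.10, SE 0.19, adjusted p = 0.00025) and in MZL (0.60, SE 0.18, adjusted p = 0.0118) than in TZL, and its grade step was lower in the B lineage (-1.01, SE 0.26, adjusted p = 0.0326). SMARCA4, an ATPase of the complex, was higher in MZL than in TZL (0.99, SE 0.20, adjusted p = 0.00055) and in B than in T (0.60, SE 0.15, adjusted p = 0.0011), while the alternative ATPase SMARCA2 was lower in both comparisons, by -0.92 (SE 0.27, adjusted p = 0.0123) and -0.78 (SE 0.16, adjusted p = 0.0002). In B against T 3 of the 17 were higher and 3 lower, where 24.2% and 22.3% of all genes were, with PHF10 at 1.08 (SE 0.16) and BCL7C at -1.29 (SE 0.26). These genes were named from the list after their values were seen, beyond the 3 of smallest p.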
